A study of Rattus norvegicus with 26 samples.

Results

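The subject is whether wheel running changed the soleus transcriptome differently in rats bred for high running capacity (HCR) and rats bred for low running capacity (LCR). The quantity is the difference of responses, the log2 fold change of running over sedentary HCR rats minus that of running over sedentary LCR rats, so that a positive value means a more upward response in HCR. All 26 of 26 libraries enter it, in 4 groups. The tested features are the 10064 genes, of 34034 in the count table, that passed a filter on low counts.

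All rats were aged females of generation 44 of selection, fed standard chow. The 5 HCR running rats lived with a wheel for more than 5 months, the 8 HCR sedentary rats had none, the 5 LCR running rats had a wheel for the same time, and the 8 LCR sedentary rats had none. Runners were housed in pairs and described as a cohort of their own, and the labels give no cage, date or wheel distance. A difference between cohorts or cages therefore cannot be told apart from running, and a line's response cannot be told apart from the distance its animals ran. Nothing in the labels names the source of the replicates beyond 1 sample name each, so the p-values measure the spread between these samples.

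Soleus is a postural muscle of the lower leg made mostly of slow, oxidative fibres. Regular endurance activity is known to raise mitochondrial enzymes and the use of fatty acids in muscle, and to shift myosin heavy chains and troponins from faster towards slower isoforms. The transcriptional coactivator encoded by Ppargc1a and the calcium-dependent phosphatase calcineurin are among the known regulators of both. An interaction of line and running would show as genes or groups of genes that move by different amounts in the lines. This includes those that move in one line and not, or oppositely, in the other.

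Total counts per library ran from 1.1 to 2.52 megacounts (M), with group means of 1.49 M in HCR running, 1.85 M in HCR sedentary, 1.70 M in LCR running and 1.80 M in LCR sedentary. Soleus markers stood high in every library, with slow myosin Myh7 at 6596 to 14106 counts scaled to library size (CPM) and ranked 5 among all genes. Of the runners, HCR running 5 and LCR running 5 carry a title that opens with the opposite line. In 41 genes that separated the sedentary lines at least 2-fold, the HCR runners had a median position of 0.87 to 0.93 and the LCR runners of -0.06 to 0.24, on a scale where 0 is the LCR sedentary mean and 1 the HCR sedentary mean. HCR running 5 stood at 0.91 and LCR running 5 at -0.02, each with the line of its genotype label, which is the one used here. LCR sedentary 5 stood apart from its group in several of the values below, and values without it are given for some of them. HCR sedentary 3 had the most counts (2.52 M) and the lowest Myh7 (6596 CPM) of all libraries. It also had the highest mean log2 CPM of collagen and matrix genes (5.85) and of MHC class II genes (4.86).

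No gene passed the test for a difference of responses. Of 10064 genes, 0 (0%) had an adjusted p under 0.05 (edgeR quasi-likelihood test, Benjamini-Hochberg adjustment), and the smallest adjusted p was 0.835. At an unadjusted p under 0.05 there were 592 genes (5.88%), against 503 expected if no gene differed. Of these, 289 (2.87% of all genes) lay above 0 and 303 (3.01%) below 0. DESeq2 called 0 genes and had 508 at an unadjusted p under 0.05, and limma with voom weights called 0 and had 753.

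The absence of calls has a measured width. The median standard error (SE) of the difference of responses was 0.24 on the log2 scale, and 0.17 for the 4456 genes averaging 5 or more on the log2 CPM scale. The 95% interval lay wholly within a 2-fold difference in either direction for 7566 genes (75.2%), and for 4239 (95.1%) of those more abundant genes.

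The responses of both lines, which share no library, were weakly alike across genes. They had the same sign in 56.3% of genes, with a Pearson correlation of 0.23 across genes, which are not independent replicates. The spread of the fold changes was 0.29 (SD) in HCR and 0.23 in LCR, and 0.22 and 0.15 for the more abundant genes. Part of each spread is estimation error, and the HCR running libraries were the shallowest group.

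**Figure D1:**
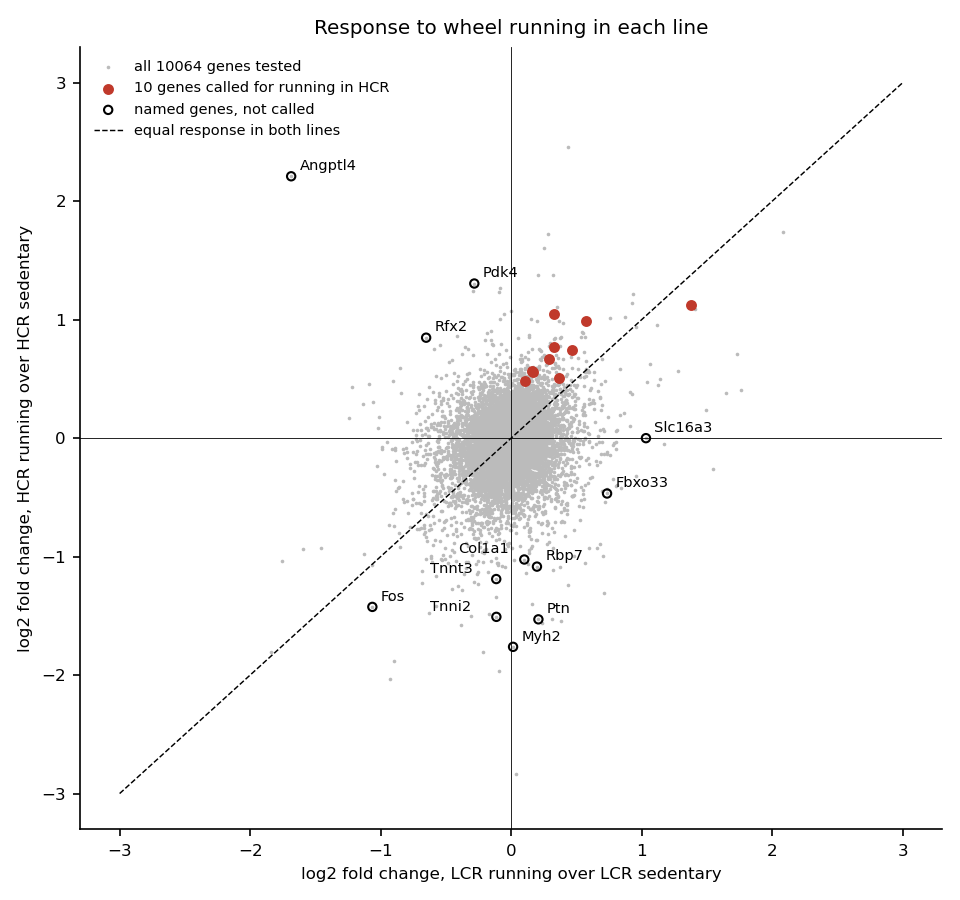
Each grey point is 1 of the 10064 genes, with the log2 fold change of running over sedentary in HCR (vertical) against the same in LCR (horizontal), and the dashed line marks equal responses. The 10 genes called in HCR are red, and the 9 of them with more than 6 counts in all LCR libraries together lie to the right of 0 in LCR; Angptl4, Pdk4 and Rfx2 lie above the line while Myh2, Tnni2, Tnnt3 and Ptn lie below it.

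The genes that rose in HCR runners give a point from which to compare the lines. In running over sedentary HCR rats 10 of 10064 genes passed (0.0994%), all above 0, while in LCR 0 (0%) passed by edgeR, 612 (6.08%) had an unadjusted p under 0.05, and DESeq2 called 2, Tsc22d3 and F2. Of the 10, LOC102550339 had 4 counts over all LCR runners and 2 over all LCR sedentary rats, so no LCR direction is read for it. The other 9 lay above 0 in LCR runners, where 5062 of 10064 genes tested did. The median log2 fold change of those 9 was 0.67 in HCR and 0.33 in LCR. Since the HCR values chose the genes, the larger HCR size is a description, and the LCR values are the independent ones. Their differences of responses ran from 0.15 to 0.72, and none passed.

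Pde4d, which encodes a phosphodiesterase that breaks down cyclic AMP, had 303, 269, 372, 264 and 301 CPM in HCR runners, against 141 to 239 CPM (median 174) in HCR sedentary rats. In LCR runners it had 224, 211, 223, 276 and 166 CPM, against 142 to 206 CPM (median 156) in LCR sedentary rats. The groups of HCR did not overlap, which the choice of the gene by its HCR test favours. In LCR 4 of 5 runners stood above every sedentary rat. The log2 fold change was 0.75 (SE 0.11) in HCR and 0.46 (SE 0.12) in LCR, a difference of 0.28 (SE 0.16, adjusted p = 0.852) that stood at -0.01 when the 2 conflicting libraries were assigned by title.

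Rcan2 encodes an inhibitor of calcineurin. It had 246, 268, 279, 220 and 309 CPM in HCR runners, against 128 to 201 CPM (median 168) in HCR sedentary rats. LCR runners had 254, 234, 228, 205 and 169 CPM, against 148 to 213 CPM (median 178) in LCR sedentary rats. The HCR groups were apart and the LCR groups overlapped, but this gene too was among those chosen by the HCR test. The response was 0.67 (SE 0.10) in HCR and 0.29 (SE 0.10) in LCR, a difference of 0.38 (SE 0.15, adjusted p = 0.835), which was 0.06 with the lines taken from the titles.

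Lmod3, the leiomodin that nucleates thin filament actin in skeletal muscle, stood at 732, 688, 1026, 863 and 750 CPM in HCR runners and at 436 to 660 CPM (median 559) in HCR sedentary rats. It stood at 858, 835, 829, 702 and 840 CPM in LCR runners and at 663 to 812 CPM (median 722) in LCR sedentary rats. The HCR sedentary rats were thus the low group, and HCR and LCR runners had means of 812 ± 136 and 813 ± 62.9 CPM (SD, n = 5 each). The difference of responses was 0.39 (SE 0.14, unadjusted p = 0.00647, adjusted p = 0.835, edgeR).

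Eno3, the muscle enolase of glycolysis, showed the same order of groups. Its means were 644 ± 78.3 CPM in HCR running, 436 ± 72.6 CPM in HCR sedentary, 657 ± 46.2 CPM in LCR running and 590 ± 115 CPM in LCR sedentary rats (SD, n = 5, 8, 5 and 8). The lines' responses differed by 0.41 (SE 0.17, adjusted p = 0.835). Kyat3, a kynurenine aminotransferase, responded by 0.99 (SE 0.18) in HCR and 0.57 (SE 0.19) in LCR, and all 5 runners of each line stood above their sedentary mean. G3bp2, a stress granule protein, responded by 0.51 in HCR and 0.36 in LCR.

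Turning to gene groups, the 36 lists held 720 tested genes, and none of these members passed. Lists are described by the median difference of responses of their tested members, beside a median of 0.00 over all genes tested (25th to 75th percentile -0.18 to 0.16). The share of members at an unadjusted p under 0.05 is read against the 5.88% of all genes.

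**Figure D2:**
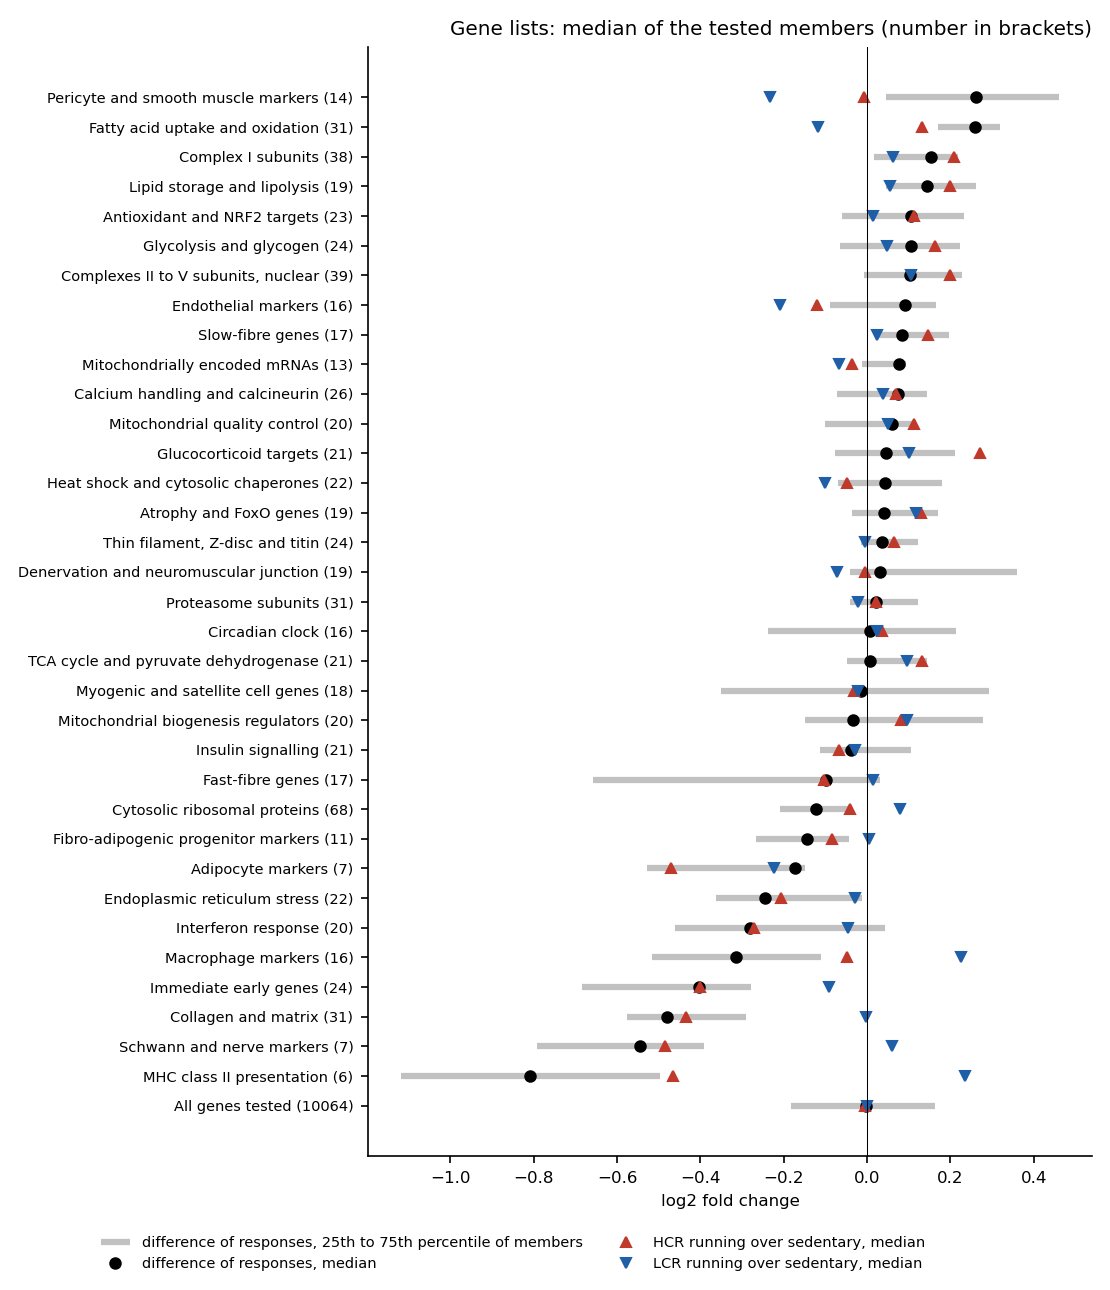
Rows are the gene lists with at least 6 tested members, ordered by the median difference of responses (black), with its 25th to 75th percentile (grey bar), and with the median response of HCR (red) and LCR (blue), all as log2 fold changes. MHC class II, Schwann cell, matrix and immediate early genes lie farthest below 0, and pericyte and fatty acid genes farthest above it, while the bottom row of all genes sits at 0.

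Among contractile genes, most fast-fibre genes lay below 0 and most slow-fibre genes above. Of 17 tested fast-fibre genes, 12 lay below 0 and 5 above (median -0.10), and 3 (17.6%) had an unadjusted p under 0.05, Myh2, Tnni2 and Tnnt3. Myh2 encodes the myosin heavy chain of type 2A fibres, Tnni2 the fast troponin I and Tnnt3 the fast troponin T. Of 17 slow-fibre genes 13 lay above 0 (median 0.09), and 1 had such a p, Myh7b.

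The sequences upstream of Myh2 and Tnni2 are shown because these genes lay below 0 together; they are the 250 bases before the annotated start in RefSeq on GRCr8, both on the plus strand, with capitals marking TATAAA or, on the other strand, TTTATA.
Myh2, chr10:52355489-52355738: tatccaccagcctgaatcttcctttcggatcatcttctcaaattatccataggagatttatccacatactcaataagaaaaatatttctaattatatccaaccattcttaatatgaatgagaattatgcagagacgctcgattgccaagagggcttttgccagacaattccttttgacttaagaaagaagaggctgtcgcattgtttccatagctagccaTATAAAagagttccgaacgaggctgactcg
Tnni2, chr1:207024240-207024489: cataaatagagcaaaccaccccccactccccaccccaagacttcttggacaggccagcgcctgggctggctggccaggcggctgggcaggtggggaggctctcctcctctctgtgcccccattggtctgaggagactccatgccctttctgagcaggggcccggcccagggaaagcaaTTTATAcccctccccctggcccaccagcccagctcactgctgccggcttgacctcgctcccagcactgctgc
The match starts 30 bases before the start of Myh2 and 72 bases before that of Tnni2. TATAAA, chosen after the windows were read, was found on either strand in 12.9% of 33469 such windows. Of 14 fast-fibre members with a window, 4 had it (Myh1, Myh2, Myh4 and Tnni2). The E-box CAGCTG, which reads the same on both strands, was in 12.0% of all windows, in 3 of the 14 and in neither Myh2 nor Tnni2. The MEF2 element, a binding motif of myocyte enhancer factors, was in 2.96% of all windows. It was in 4 of the 14 (Myh1, Myh4, Myl1 and Myoz1) and in neither Myh2 nor Tnni2.

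Myh2 had 486, 247, 282, 538 and 613 CPM in HCR runners, against 341 to 2921 CPM (median 1514) in HCR sedentary rats. In LCR runners it had 1089, 2944, 3119, 3142 and 5349 CPM, against 928 to 4830 CPM (median 2733) in LCR sedentary rats. All 5 HCR runners were low, the HCR sedentary rats spread from their level to that of LCR, and both LCR groups were high and overlapped. The response was -1.76 (SE 0.53) in HCR and 0.01 (SE 0.49) in LCR, and the difference of responses was -1.78 (SE 0.71, 95% interval -3.24 to -0.31, unadjusted p = 0.0196, adjusted p = 0.835, edgeR).

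In Tnni2, too, the HCR runners had the lowest mean. HCR runners had 146, 100, 66.0, 135 and 126 CPM, against 51.8 to 510 CPM (median 349) in HCR sedentary rats. LCR runners had 337, 599, 717, 617 and 997 CPM, against 367 to 1047 CPM (median 708) in LCR sedentary rats. One HCR sedentary rat stood below every HCR runner, and the rest of that group stood above them. The difference of responses was -1.39 (SE 0.55, unadjusted p = 0.0192, adjusted p = 0.835).

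Tnnt3 had 303, 181, 192, 445 and 436 CPM in HCR runners, against 220 to 1244 CPM (median 686) in HCR sedentary rats. It had 570, 1042, 1818, 1006 and 1689 CPM in LCR runners, against 929 to 1740 CPM (median 1300) in LCR sedentary rats. HCR runners were again the low group, with an overlap that comes from 1 low HCR sedentary rat. For the difference of responses the estimate was -1.07 (SE 0.46, unadjusted p = 0.0289, adjusted p = 0.836). With the lines taken from the titles, the values turned to 0.41 for Myh2, 0.35 for Tnni2 and 0.10 for Tnnt3, and without both conflicting libraries they were -1.65, -1.23 and -1.08.

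The myosins of still faster fibres did not show this order. Myh1 (type 2X) stood at -0.80 (SE 0.95) and at 0.56 without LCR running 3, which had 1162 CPM against 66.0 to 179 CPM in the other LCR runners. Myh4 (type 2B) stood at 1.08 (SE 0.97) and at -0.38 without HCR running 2, which had 302 CPM against 10.6 to 58.0 CPM in the other HCR runners. Slow myosin Myh7 averaged 11489 ± 1473 CPM in HCR running, 10210 ± 2149 CPM in HCR sedentary, 10992 ± 366 CPM in LCR running and 11407 ± 1262 CPM in LCR sedentary rats, a difference of responses of 0.22 (SE 0.17). The slow troponins Tnni1 and Tnnt1 stood at 0.15 (SE 0.13) and 0.20 (SE 0.17). In bulk muscle, fewer fibres of a type and less RNA per fibre cannot be told apart.

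**Figure D3:**
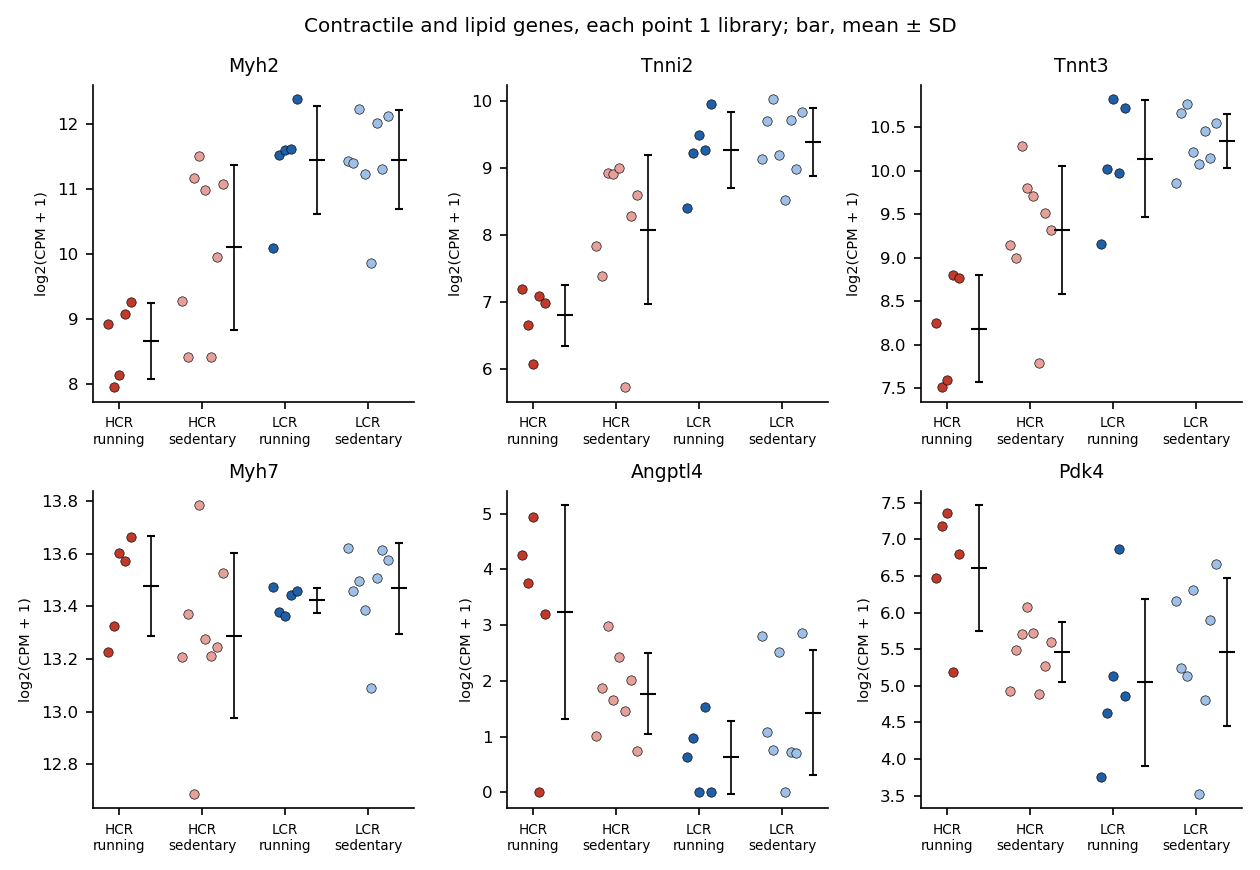
Each point is 1 library and each bar the group mean ± SD, as log2(CPM + 1), for HCR running, HCR sedentary, LCR running and LCR sedentary rats from left to right. HCR runners are the low group for Myh2, Tnni2 and Tnnt3, and 4 of 5 HCR runners are high for Angptl4 and Pdk4.

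Lipid genes leaned the other way. Of 31 tested genes of fatty acid uptake and oxidation, 28 lay above 0 and 3 below, with a median difference of responses of 0.26. The median response was 0.13 in HCR, where 28 lay above 0, and -0.12 in LCR, where 24 lay below 0. In all, 3 members (9.68%) had an unadjusted p under 0.05. They were Etfdh, which passes electrons from fatty acid oxidation to the respiratory chain (0.58, SE 0.24), the inner carnitine transferase Cpt2 (0.53, SE 0.22) and Hadha, of the trifunctional beta-oxidation enzyme (0.46, SE 0.20). Cpt1b, the muscle form of the rate-limiting carnitine transferase, stood at 0.18 (SE 0.16) and the acyl-CoA synthetase Acsl1 at 0.18 (SE 0.15).

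The mean log2 CPM over this list was 6.64 ± 0.25 in HCR running, 6.5 ± 0.17 in HCR sedentary, 6.17 ± 0.20 in LCR running and 6.31 ± 0.27 in LCR sedentary rats (SD). Groups overlapped within each line. The LCR sedentary group held 1 rat, LCR sedentary 5, at 5.71, and without it the list median of the difference of responses was 0.33. Without LCR running 3, the lowest LCR runner at 5.84, the list median was 0.16. The median was 0.11 with the lines taken from the titles, where Hadha turned to -0.05, and 0.23 without both conflicting libraries. Hadha stood at 0.285 without HCR running 5, which had 481 CPM against 234 to 334 CPM in the other HCR runners.

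Angptl4, a secreted inhibitor of lipoprotein lipase induced by fatty acids, had the farthest value of the named genes. It had 18.2, 12.5, 29.8, 0 and 8.18 CPM in HCR runners, against 0.66 to 6.96 CPM (median 2.41) in HCR sedentary rats. LCR runners had 0.543, 0.973, 0, 1.90 and 0 CPM, against 0 to 6.28 CPM (median 0.907) in LCR sedentary rats. In 4 HCR runners the level was above that of every other rat, and HCR running 4 had no count. Those 4 libraries had 8 to 42 counts, and Angptl4 passed the low-count filter mainly through them. That it was tested is therefore no separate sign of a difference. The LCR values rest on 0 to 12 counts per library. The difference of responses was 3.90 (SE 1.21, 95% interval 1.40 to 6.39, unadjusted p = 0.00361, adjusted p = 0.835), and 2.20 with limma on log2 CPM.

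Pdk4 encodes the kinase that switches pyruvate dehydrogenase off when fat is burned. It had 88.2, 145, 163, 35.6 and 111 CPM in HCR runners, against 28.6 to 66.3 CPM (median 45.7) in HCR sedentary rats. LCR runners had 12.5, 23.8, 34.2, 116 and 28.1 CPM, against 10.5 to 100.0 CPM (median 47.8) in LCR sedentary rats. Of the HCR runners 4 were high and 1 was not, and 1 LCR runner was high and 4 were not. Between the lines the responses differed by 1.59 (SE 0.67, unadjusted p = 0.0273, adjusted p = 0.836). That difference was 2.40 without LCR running 4, the high one, and 0.95 with the lines taken from the titles.

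Among lipid storage and lipolysis genes 15 of 19 lay above 0 (median 0.14). That median was 0.06 without LCR running 3 and 0.26 without LCR running 4. Angptl4 and Agpat2, an enzyme of triglyceride synthesis (1.19, SE 0.56), had an unadjusted p under 0.05. In LCR runners Agpat2 rests on 2 to 5 counts per library. Adipocyte markers did not move with the lipid storage genes. Of 7 tested, 6 lay below 0 in the difference of responses and all 7 lay below 0 in both lines' responses, and the summed level of 12 markers was 237 to 373 CPM in HCR running, 280 to 518 CPM in HCR sedentary, 170 to 282 CPM in LCR running and 216 to 391 CPM in LCR sedentary rats.

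Mitochondrial genes differed less. Of 38 complex I subunits 29 lay above 0 (median 0.15), with responses above 0 for 33 in HCR and 30 in LCR. That median was 0.11 without LCR running 3 and 0.21 without LCR sedentary 5. At an unadjusted p under 0.05 were 3 (7.90%), Ndufs7 (0.38, SE 0.16), Ndufs6 (0.63, SE 0.28) and Ndufa3 (0.37, SE 0.18). Nuclear subunits of complexes II to V had 28 of 39 above 0 (median 0.10) with 0 at such a p, and 36 and 34 of them lay above 0 in HCR and LCR. Their median was 0.05 without LCR running 3 and 0.17 without LCR running 5. Mitochondrially encoded mRNAs had a median of 0.08, and mitochondrial mRNA took 3.06 to 3.53% of counts in HCR running, 2.97 to 3.92% in HCR sedentary, 2.72 to 3.09% in LCR running and 2.34 to 3.75% in LCR sedentary rats.

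The TCA cycle list was split, with 11 of 21 above 0 and a median of 0.01. A total of 3 members (14.3%), all above 0, had an unadjusted p under 0.05, the isocitrate dehydrogenase genes Idh2 (0.39, SE 0.17) and Idh3g (0.32, SE 0.14) and Pdk4. Citrate synthase Cs stood at -0.08 (SE 0.12, 95% interval -0.32 to 0.16). Glycolysis and glycogen genes had 15 of 24 above 0 (median 0.11), with Pygm, the glycogen phosphorylase of muscle (0.51, SE 0.20), and Eno3 at an unadjusted p under 0.05. Slc16a3, a lactate exporter, stood at -1.03 (SE 0.99) on 1 to 9 counts per library in HCR rats, and at 0.14 with the lines taken from the titles.

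Regulators of mitochondrial biogenesis had 10 of 20 above 0 (median -0.03). Ppargc1a had 44.6, 40.1, 50.4, 54.7 and 46.0 CPM in HCR runners, against 22 to 54.0 CPM (median 37.6) in HCR sedentary rats. It had 38.5, 56.9, 38.8, 78.3 and 67.7 CPM in LCR runners, against 27.4 to 43.1 CPM (median 34.9) in LCR sedentary rats. All 5 runners of each line stood above their sedentary mean. The response was 0.28 (SE 0.17) in HCR and 0.69 (SE 0.17) in LCR, a difference of -0.42 (SE 0.24, adjusted p = 0.852). This was -0.26 without LCR running 4, the highest, and -0.20 with the lines taken from the titles. Its relative Ppargc1b stood on the other side of 0, at 0.45 (SE 0.16, unadjusted p = 0.00743, adjusted p = 0.835).

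Tsc22d3 is a leucine zipper gene induced by glucocorticoids. It had 109, 91.1, 97.9, 71.2 and 73.6 CPM in HCR runners, against 67.4 to 85.0 CPM (median 72.0) in HCR sedentary rats. It had 98.2, 80.8, 81.7, 126 and 73.9 CPM in LCR runners, against 51.7 to 73.8 CPM (median 58.6) in LCR sedentary rats. The LCR runners all stood above the LCR sedentary rats, and the HCR groups overlapped. The response was 0.29 (SE 0.12) in HCR and 0.61 (SE 0.12, adjusted p = 0.067) in LCR, a difference of -0.32 (SE 0.16, adjusted p = 0.852) that was -0.18 without LCR running 4, the rat at 126 CPM. The glucocorticoid target list had 14 of 21 above 0 (median 0.05), with 2 members above 0 and 1 below at an unadjusted p under 0.05 (14.3%).

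Matrix genes lay below 0 almost throughout. Of 31 collagen and matrix genes 29 lay below 0 (median -0.48), with a median response of -0.44 in HCR and 0.00 in LCR. Of these 4 (12.9%) had an unadjusted p under 0.05, fibronectin Fn1 (-0.65, SE 0.24), the collagen chain Col5a2 (-0.86, SE 0.40) and the collagen chaperone Serpinh1 (-0.53, SE 0.22) below 0, and elastin Eln (0.99, SE 0.31) above it. Fibro-adipogenic progenitor markers, from the cells that make much of this matrix, had 9 of 11 below 0 (median -0.14, but -0.35 without HCR running 1 and -0.05 without HCR running 3). Their summed level was 1106 to 1935 CPM in HCR running, 1236 to 1711 CPM in HCR sedentary, 1181 to 1579 CPM in LCR running and 1215 to 1552 CPM in LCR sedentary rats, and their part in the matrix values was not tested.

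Col1a1, the main chain of type I collagen, had 60.2, 35.8, 24.8, 53.8 and 19.4 CPM in HCR runners, against 30.2 to 157 CPM (median 74.7) in HCR sedentary rats. In LCR runners it had 38, 97.3, 62, 37.3 and 74.7 CPM, against 18.9 to 115 CPM (median 45.8) in LCR sedentary rats. All 4 groups overlapped. The difference of responses was -1.13 (SE 0.61, adjusted p = 0.852), and that of Col3a1 was -0.48 (SE 0.49) and -1.12 without HCR running 1, which held 67.0 CPM against 10.2 to 30.6 CPM in the other HCR runners. Col3a1 stood at -0.29 without LCR running 2, and with the lines taken from the titles Col1a1 stood at -0.58 and Col3a1 at -0.26.

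Immune genes showed the widest list median. Of 6 tested genes of MHC class II presentation, by which antigen-presenting cells display peptides, 5 lay below 0 (median -0.81), with responses of -0.47 in HCR and 0.24 in LCR. Among them 4 (66.7%) had an unadjusted p under 0.05, RT1-Ba (-1.14, SE 0.39), RT1-DMb (-1.05, SE 0.36), RT1-Da (-1.22, SE 0.48) and the invariant chain Cd74 (-0.57, SE 0.24). RT1-Ba averaged 6.96 ± 1.41 CPM in HCR running, 9.27 ± 3.36 CPM in HCR sedentary, 11.3 ± 3.92 CPM in LCR running and 7.11 ± 2.74 CPM in LCR sedentary rats. The RT1 genes lie in the same histocompatibility complex and are expressed by the same cells, so the members are not independent of each other. RT1-DMb, with 24.6 CPM in LCR running 5 against 6.32 to 17.4 CPM in the other LCR runners, stood at -0.26 with the lines taken from the titles.

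The mean log2 CPM of MHC class II genes was 3.85 ± 0.30 in HCR running, 4.32 ± 0.33 in HCR sedentary, 4.24 ± 0.16 in LCR running and 4.01 ± 0.45 in LCR sedentary rats. Groups overlapped in both lines, and with the lines taken from the titles the list median was -0.48. Macrophage markers had 14 of 16 below 0 (median -0.32; -0.05 in HCR and 0.23 in LCR), with Cd68 (-0.83, SE 0.29), Tyrobp, Folr2 and Spp1 at an unadjusted p under 0.05. The summed level of 19 macrophage markers was 417 to 624 CPM in HCR running, 419 to 688 CPM in HCR sedentary, 396 to 569 CPM in LCR running and 286 to 490 CPM in LCR sedentary rats, and the part of macrophage number in the MHC class II values was not tested. Interferon response genes had 14 of 20 below 0 (median -0.28) and 0 at such a p.

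Immediate early genes, which contraction and stress induce within minutes, had 21 of 24 below 0 (median -0.40). Their median response was -0.40 in HCR and -0.09 in LCR. In this list 5 (20.8%) had an unadjusted p under 0.05, Zfp36 (-1.02, SE 0.38), Dusp1 (-0.70, SE 0.31), Junb (-0.89, SE 0.42), Klf6 (-0.42, SE 0.19) and Nr4a1 (-0.80, SE 0.37). Nr4a1 stood at -0.39 without LCR running 4, which had 36 CPM against 10.3 to 17.6 CPM in the other LCR runners. Dusp1, a phosphatase of MAP kinases, had 21.8, 28.8, 32.6, 29.0 and 49.1 CPM in HCR runners, all below the 56.7 to 81.8 CPM (median 62.8) of HCR sedentary rats. It had 42.9, 47.2, 34.2, 61.3 and 41.3 CPM in LCR runners, against 33.6 to 112 CPM (median 50.8) in LCR sedentary rats.

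Fos encodes a subunit of the transcription factor AP-1. It had 37.9, 55.9, 78.0, 96.1 and 195 CPM in HCR runners, against 119 to 403 CPM (median 226) in HCR sedentary rats. LCR runners had 74.3, 132, 80.5, 145 and 132 CPM, against 83.4 to 678 CPM (median 166) in LCR sedentary rats. Runners of both lines were on the low side, with a response of -1.43 (SE 0.50) in HCR and -1.06 (SE 0.48) in LCR. The difference was -0.36 (SE 0.68, 95% interval -1.76 to 1.04). It was -0.81 without LCR sedentary 2, the rat at 678 CPM, -0.14 without HCR running 1 and -0.69 with the lines taken from the titles.

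**Figure D4:**
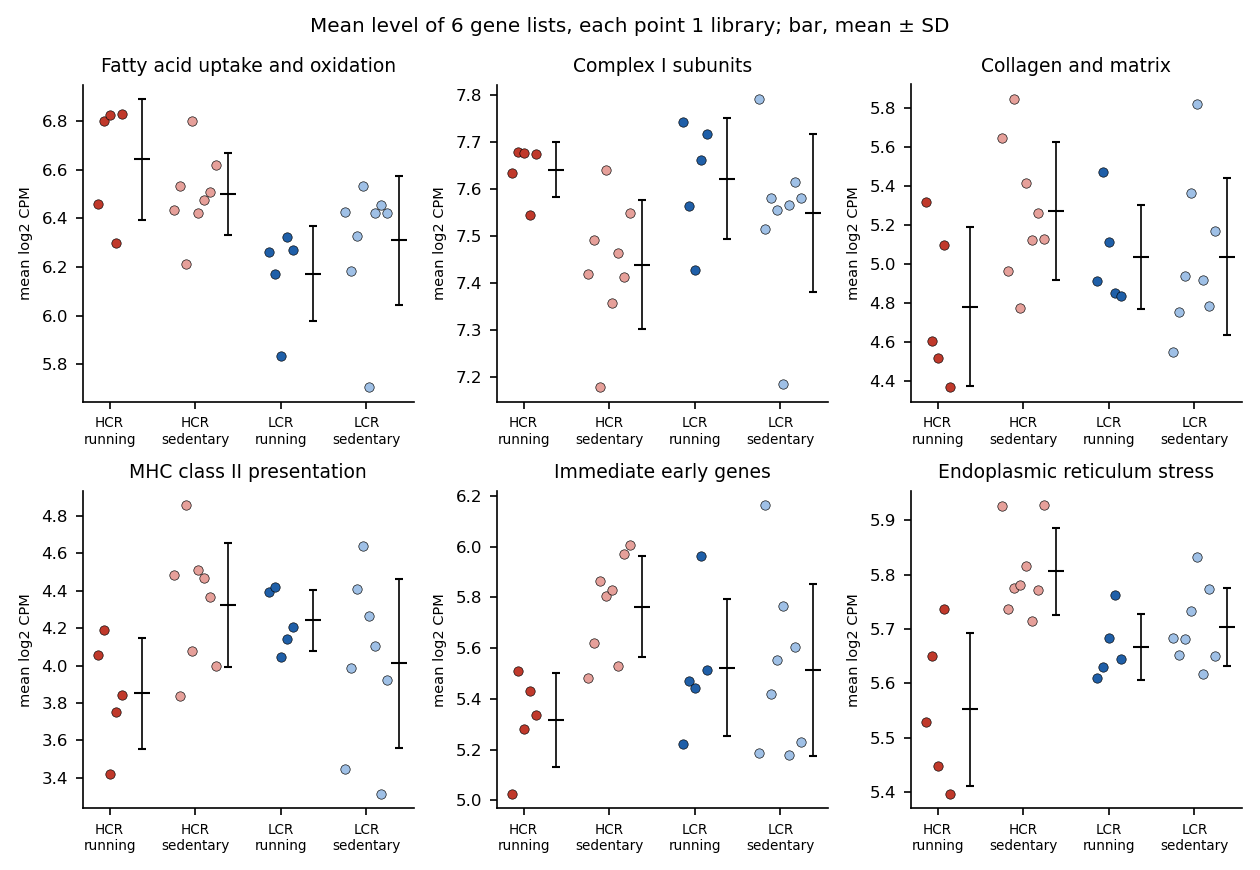
Each point is the mean log2 CPM of 1 gene list in 1 library, with the group mean ± SD as a bar, for HCR running, HCR sedentary, LCR running and LCR sedentary rats from left to right. HCR sedentary rats are the highest group for matrix, MHC class II, immediate early and endoplasmic reticulum stress genes, and groups overlap in all 6 panels.

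Endoplasmic reticulum stress genes had 18 of 22 below 0 (median -0.24; -0.21 in HCR and -0.03 in LCR), and the folding genes Pdia3 (-0.36, SE 0.15), Canx (-0.27, SE 0.12) and P4hb (-0.23, SE 0.11) had an unadjusted p under 0.05. With the lines taken from the titles their list median was -0.11. Cytosolic chaperones had 14 of 22 above 0 (median 0.04), with Stip1 (0.38, SE 0.13), Hsph1 (0.39, SE 0.13) and Chordc1 (0.30, SE 0.14) above 0 and Dnajb5 (-0.54, SE 0.27) below 0 at such a p. Proteasome subunits had a median of 0.02.

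Cytosolic ribosomal proteins had 60 of 68 below 0, with a small median of -0.12. Their median response was -0.04 in HCR and 0.08 in LCR, and 7 (10.3%), all below 0, had an unadjusted p under 0.05, led by Rpl4 (-0.41, SE 0.15) and Rps24 (-0.35, SE 0.14). With the lines taken from the titles the list median was -0.06. Ribosomal protein genes have many near-identical copies, so their counts are uncertain. Schwann and nerve markers had 7 of 7 tested members below 0 (median -0.54; -0.48 in HCR and 0.06 in LCR), led by the myelin gene Pmp22 (-0.44, SE 0.17), with a list median of -0.32 with the lines taken from the titles, and 15 such markers summed to 143 to 264 CPM in HCR running, 222 to 384 CPM in HCR sedentary, 224 to 253 CPM in LCR running and 168 to 272 CPM in LCR sedentary rats.

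Vessel, nerve terminal and other lists complete the set. Pericyte and smooth muscle markers had 11 of 14 above 0 (median 0.26; -0.01 in HCR and -0.23 in LCR) with 0 at an unadjusted p under 0.05. Endothelial markers had a median of 0.09, and the angiogenic growth factor Vegfa stood at -0.05 (SE 0.22, 95% interval -0.50 to 0.40). Neuromuscular junction and denervation genes had 11 of 19 above 0 (median 0.03), with Colq, the collagen tail that anchors acetylcholinesterase (0.46, SE 0.16), and the acetylcholine receptor subunit Chrnd (0.44, SE 0.21) at such a p. Atrophy genes had a median of 0.04, with Fbxo32, a muscle ubiquitin ligase subunit, at 0.40 (SE 0.19). Circadian clock, insulin signalling, myogenic, calcium handling, thin filament, antioxidant and mitochondrial quality control genes had medians from -0.04 to 0.11. Red blood cell markers had 4 tested members (median -0.04) and lymphocyte markers 1 (-0.14).

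Across all genes, the smallest unadjusted p belonged to Ptn, which encodes the heparin-binding growth factor pleiotrophin. It had 1.04, 3.80, 2.13, 0.828 and 3.07 CPM in HCR runners, which is 1 to 7 counts per library, against 4.24 to 8.58 CPM (median 6.32) in HCR sedentary rats. LCR runners had 7.05, 7.78, 9.27, 5.69 and 7.04 CPM, against 2.5 to 9.02 CPM (median 6.07) in LCR sedentary rats. HCR runners stood below every HCR sedentary rat and every LCR runner, while the LCR groups overlapped. The lines' responses differed by -1.74 (SE 0.43, 95% interval -2.62 to -0.86, unadjusted p = 0.000292, adjusted p = 0.835, edgeR).

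Fbxo33, an F-box subunit of ubiquitin ligases, had 5.71, 5.97, 7.09, 7.45 and 9.20 CPM in HCR runners, against 7.2 to 13.7 CPM (median 8.78) in HCR sedentary rats. It had 11.9, 9.24, 8.11, 12.6 and 7.04 CPM in LCR runners, against 3.91 to 8.11 CPM (median 5.58) in LCR sedentary rats. The lines' responses pointed in opposite directions, -0.47 (SE 0.22) in HCR and 0.73 (SE 0.21) in LCR, and the difference was -1.20 (SE 0.31, unadjusted p = 0.000408).

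Other named genes below 0 had this shape to different degrees. They were chosen by their p for the difference, so the positions of their runners are a description only. Tollip, an adaptor that dampens Toll-like receptor signals, responded by -0.48 (SE 0.16) in HCR and 0.35 (SE 0.16) in LCR, and Zbtb4, a repressor that binds methylated DNA, by -0.21 (SE 0.09) and 0.23 (SE 0.08). For both, 0 of 5 HCR runners and 5 of 5 LCR runners stood above their sedentary mean. Ppic, a cyclophilin of the secretory pathway, responded by -0.71 (SE 0.21) in HCR and 0.40 (SE 0.22) in LCR. Map3k7cl, Mapk1ip1l and the retinoid-binding protein gene Rbp7 had their response mostly in HCR (-0.94, -0.40 and -1.09, against 0.14, 0.15 and 0.20 in LCR). Rbp7 had 4.15, 5.97, 4.26, 4.97 and 5.11 CPM in HCR runners, all below the 6.25 to 13.3 CPM (median 11.5) of HCR sedentary rats.

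Above 0, Usp36, a nucleolar deubiquitinase, had the smallest unadjusted p (0.000649). It had 122, 141, 160, 130 and 154 CPM in HCR runners, against 90.8 to 125 CPM (median 114) in HCR sedentary rats. LCR runners had 108, 106, 133, 124 and 113 CPM, against 102 to 145 CPM (median 138) in LCR sedentary rats. HCR runners lay above most HCR sedentary rats and LCR runners inside the LCR sedentary range. The difference of responses was 0.51 (SE 0.14).

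Rfx2, a transcription factor of cilia genes, had the farthest value of the 8 genes named above 0, at 1.5 (SE 0.43), and rests on few counts. It had 17.1, 7.59, 5.67, 9.11 and 7.15 CPM in HCR runners, against 3.57 to 7.41 CPM (median 5.20) in HCR sedentary rats. It had 7.60, 5.84, 5.79, 6.32 and 3.52 CPM in LCR runners, against 3.23 to 15.2 CPM (median 9.70) in LCR sedentary rats. One HCR runner and several LCR sedentary rats were high, and the other values overlapped.

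In Ints13, a subunit of the Integrator complex, Timm50, of the mitochondrial import channel, Clcn3, an endosomal chloride transporter, and Gps1, of the COP9 signalosome, the LCR side was the farther from 0. Their responses were 0.18, 0.29, 0.11 and 0.37 in HCR and -0.35, -0.39, -0.38 and -0.41 in LCR. None of the 5 LCR runners stood above the LCR sedentary mean for any of these 4 genes. The 4 genes were chosen by their p for the difference, so this describes them and adds no support. Dgkz, a diacylglycerol kinase, and Tacc2, a microtubule-associated protein, responded by 0.30 and 0.19 in HCR and -0.23 and -0.18 in LCR. Over all genes, 54 (0.537%) had all 5 HCR runners on one side of their sedentary mean and all 5 LCR runners on the other, 30 with HCR below and 24 with HCR above, and none of these passed the test.

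**Figure D5:**
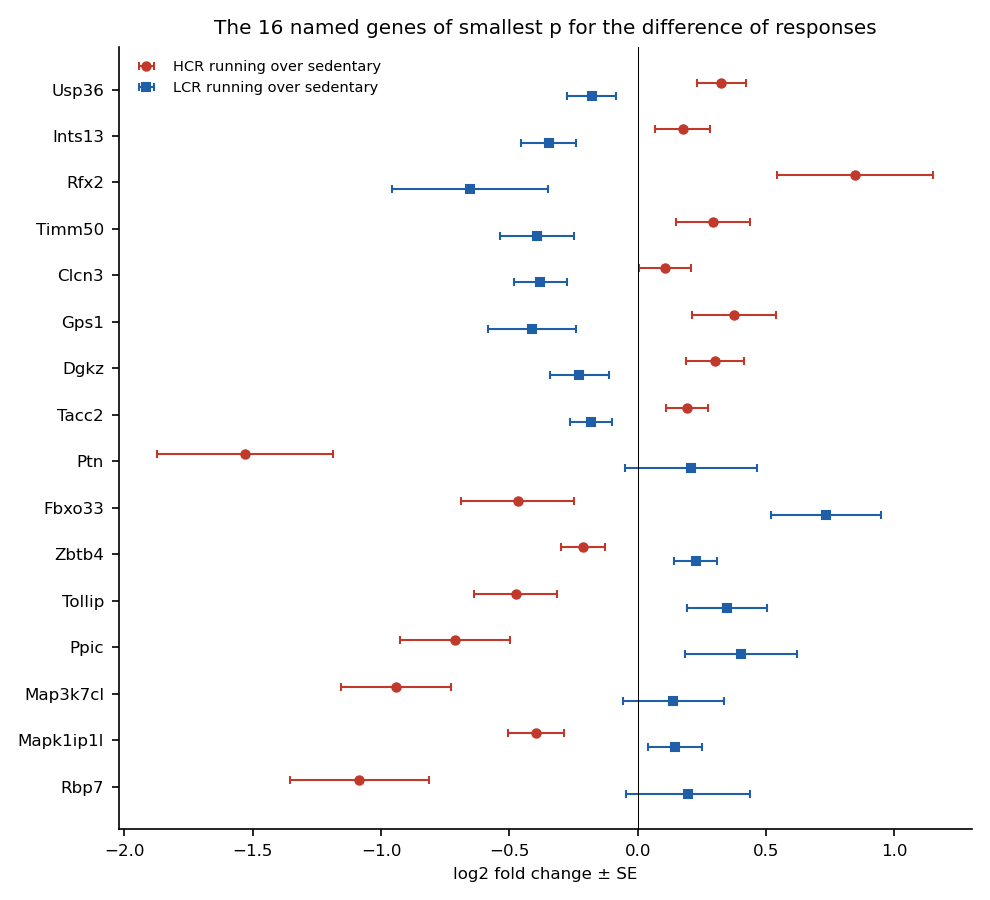
Points are log2 fold changes of running over sedentary rats with their SE, for HCR (red circles, upper of each pair) and LCR (blue squares), in the 8 genes of smallest p above 0 (top) and below 0 (bottom) for the difference of responses. The responses have opposite signs in all 16 genes, which were chosen by their p for that difference, and none passed the test.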

How the data were processed

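Per the labels' protocols, QuantSeq 3' libraries were made by oligo(dT) priming and sequenced single-end, so a count reflects the 3' end of a transcript. Values in the deposited table are whole-number read counts per gene that the authors left unscaled. The submitters' processing notes list STAR, featureCounts, cutadapt and UMI-tools, without order or settings, and the assembly mRatBN7.2. Whether identical molecular identifiers were collapsed and whether strand was used are not given in the sources used here, so overlapping and antisense genes are uncertain. All 26 count columns matched a sample, and 0 did not.

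Groups follow the description and genotype. Libraries of 1 group were compared pairwise by chi-square per degree of freedom (2.26 to 11.6 over 76 pairs), which found no duplicates.

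Counts were tested with edgeR 4.0.16 (R 4.3.3) by the robust quasi-likelihood F test, with TMM factors, filterByExpr and Benjamini-Hochberg adjustment at 0.05 over 10064 genes, in 1 fit over 4 groups without covariates. Each SE was derived from its fold change (log2) and F statistic, as the absolute value over root F. CPM use TMM-scaled library sizes, and log2 CPM a prior count of 2. DESeq2 1.42.0 and limma 3.58.1 were alternatives. Each test was tried on simulated counts.

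The comparison and the 36 lists (780 of 787 members in the table) were chosen with earlier results of these data known. Named genes are the 8 of smallest p in each direction with a full symbol and average log2 CPM of at least 2, the 2 of smallest p of each list, and a fixed set of anchors; G3bp2 belongs to the 10 HCR calls, of which 1 is not reported here by name, F2 was named after its values were seen, and further list members are those with an unadjusted p under 0.05.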

Additional observations from a re-analysis of the deposited data

Results flagged for a closer look

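Of 156 groups of values examined (32 genes on the log2(CPM + 1) scale, 6 list means and total counts, in 4 groups), 14 held 1 library far from the rest of its group, against about 8 by chance, since about 1 in 20 groups is flagged so. LCR sedentary 5 accounts for 6 of them, as the lowest of its group for Myh7 (8726 CPM), Myh2 (928 CPM), Kyat3 (5.99 CPM), Eno3 (376 CPM) and the mean log2 CPM of complex I subunits (7.19) and of fatty acid genes (5.71). Without it the median difference of responses was 0.21 for complex I subunits and 0.33 for fatty acid genes, and Kyat3 stood at 0.55 and Eno3 at 0.49. In that refit 761 genes had an unadjusted p under 0.05, with 0 past the threshold. Leaving out LCR running 3 instead moved the list medians the other way, to 0.11 for complex I subunits and 0.16 for fatty acid genes.

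Among the runners, Zbtb4 was lowest in HCR running 5 (71.5 CPM), Tollip lowest in HCR running 4 (15.7 CPM), Ints13 highest in HCR running 5 (79.7 CPM) and Lmod3 lowest in LCR running 4 (702 CPM). Among sedentary rats, Tsc22d3 was highest in HCR sedentary 4 (85.0 CPM), Mapk1ip1l lowest in HCR sedentary 8 (66.7 CPM), Ints13 highest in LCR sedentary 3 (81.9 CPM) and Ptn lowest in LCR sedentary 7 (2.5 CPM).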

How the results depend on the processing

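Under 37 alternatives (other size factors, filters and tools, the replicate block, the lines by title, and each of 26 libraries left out) the count of genes that passed stayed 0, and the smallest adjusted p ran from 0.11 (lines by title) to 1. The count at an unadjusted p under 0.05 ran from 459 to 852 without 1 library (lowest without HCR running 3, highest without HCR running 1), was 1145 of 22896 genes with no filter, 604 with a filter of 5 CPM in 5 libraries, which kept 10452 genes, 679 with limma trend, 477 with the lines by title and 480 without both conflicting libraries. No scaling moved the median of all genes by over 0.1. With the replicate block 0 genes passed and 595 had an unadjusted p under 0.05. The deviations of same-numbered libraries from their group means had a mean r of -0.06 to 0.04, with single pairs from -0.31 to 0.40. So few pairs cannot settle whether the numbers pair animals, and the labels do not say so.

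Of 3367 gene values recomputed for 91 genes, 3353 kept their sign and none passed, and 14 in 9 genes changed sign. With the lines by title these were Myh2 (0.41), Tnni2 (0.35), Tnnt3 (0.10), Pde4d (-0.007), Hadha (-0.047), Slc16a3 (0.14) and Vegfa (0.14). Others were Vegfa (0.054 without both conflicting libraries) and, over the refits without 1 library, Myh1 (-1.04 to 0.56, highest without LCR running 3), Myh4 (-0.38 to 1.79, lowest without HCR running 2) and Vegfa (-0.20 to 0.11). The lines by title trade only HCR running 5 and LCR running 5, which stood at 0.91 and -0.02 in the label check, each with its genotype label. Without both of them Myh2 stood at -1.65, Tnni2 at -1.23, Tnnt3 at -1.08, Pde4d at 0.20, Hadha at 0.32 and Slc16a3 at -1.37. The cause of the other sign changes was not tested. Of 36 list medians, 14 changed sign somewhere, among them fast-fibre genes (0.08 with the lines by title); fatty acid genes (0.11 to 0.33), matrix (-0.66 to -0.29), immediate early (-0.55 to -0.25), MHC class II (-0.94 to -0.48), macrophage (-0.42 to -0.24) and Schwann cell genes (-0.67 to -0.32) did not. Other values that moved by over 1.5 times with the lines by title were Angptl4 (2.52), Agpat2 (0.74), Cpt2 (0.34), Acsl1 (0.03), Idh3g (0.20), Fbxo32 (0.12), Tyrobp (-0.58), Folr2 (-0.84), Dnajb5 (-0.21), Rpl4 (-0.19), Usp36 (0.33), Ints13 (0.29) and Tacc2 (0.21). Myh1 (-1.38), Myh7 (0.135), Tnni1 (0.08), Cs (-0.03), Nr4a1 (-0.49), Pdia3 (-0.22), Canx (-0.15) and Hsph1 (0.26) also moved by over 1.5 times. Without HCR running 3 the interferon list stood at -0.13. Depth limits the LCR values of LOC102550339, Angptl4 and Agpat2, among others, which rest on few counts.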
